A study of Mus musculus with 8 samples.

Results

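The genes described here are the splicing factor genes whose symbols start with Srsf, Hnrnp, Sf3a, Sf3b, Snrnp, or Snrp followed by a letter or digit. Hnrnpc, Hnrnpa2b1 and pseudogenes were left out, which gave 57 symbols in the gene name table. Of these, 54 were in the count table of 12404 genes and 53 were among the 8645 genes tested. Snrpc, which encodes the C protein of the U1 particle, was in the table but too low to test. Snrpf, Snrpn and Srsf12 are not analysed here. The genes fell by role into 10 of the SR protein family, 18 hnRNPs, 3 of the U1 particle, 11 of the U2 particle with its SF3A and SF3B complexes, 3 of the U5 particle and the tri-snRNP, 3 of the U11/U12 particle of the minor spliceosome, and 6 of the Sm core.

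The cells were TM3, a mouse Leydig cell line, from the cell type that makes testosterone in the testis. Cells exposed to bisphenol A (BPA), an estrogen-like building block of plastics, were compared with normal TM3 cells with RNA-seq and MeRIP-seq. In MeRIP-seq an antibody enriches (IP) RNA fragments that carry N6-methyladenosine (m6A), and the RNA-seq libraries served as the input. Each condition had 2 libraries per assay. The labels used here give no dose, no exposure time and no origin of the replicates, so the spread behind each p-value is that of these libraries and may be technical. Both conditions are 1 cell line in culture, with no other treatment named.

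Pre-mRNA splicing is carried out by the spliceosome. The U1 particle recognises the start of an intron and the U2 particle its branch point. The tri-snRNP then joins, and the minor spliceosome handles a small class of introns with U11 and U12 in their place. A ring of Sm proteins forms the core of most of these particles. SR proteins bind mainly exonic enhancers and favour exon inclusion, while hnRNPs coat nascent RNA and often repress nearby splice sites. Many of these genes also control their own mRNA through alternative exons that lead to decay.

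The libraries held 8813870 and 6305121 reads in BPA cells and 10455643 and 7517482 reads in normal cells. The median gene of the table had 15 and 2 reads in BPA cells, against 233 and 150 in normal cells, and 4086 and 4676 genes were at 0 in BPA cells, against 2877 and 2207 in normal cells. None of the 7 Leydig cell markers looked up (Star, Cyp11a1, Cyp17a1, Hsd3b1, Lhcgr, Insl3 and Nr5a1) is analysed here, so the label could not be checked on them. Of the markers of other testis cells, Wt1 and Clu were 2 of the 5 Sertoli genes looked up. Wt1 had 1952 and 516 reads in BPA cells, against 1563 and 2307 in normal cells. Clu had 335 and 205 reads in BPA cells, against 221 and 1 in normal cells. Cd68, 1 of 4 macrophage genes looked up, had 174 and 436 reads in BPA cells and 0 and 59 in normal cells. Acta2, 1 of 2 peritubular and smooth muscle genes looked up, had 498 and 1270 reads in BPA cells and 80 and 352 in normal cells. The other genes of these lists are not analysed here. The 4 germ cell and 2 endothelial markers looked up are not analysed here. The part of these genes in the results was not tested.

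The splicing factor genes took a similar part of each library. They held 2.04% and 2.20% of the reads in BPA cells and 1.88% and 2.30% in normal cells, and the groups overlapped. The SR genes took 0.732% and 0.682% in BPA cells, against 0.616% and 0.808% in normal cells. The hnRNP genes took 1.07% and 1.23% in BPA cells, against 0.974% and 1.21% in normal cells. The U2 and SF3 genes took 0.176% and 0.183% in BPA cells, against 0.182% and 0.192% in normal cells. Of the 7 classes, the U1 genes and the U11/U12 genes alone took a smaller share in both BPA libraries than in either normal library. Of all tested genes, 27.2% had a lower library-normalised count in both BPA libraries than in either normal one. The U1 genes took 0.0151% and 0.0115% in BPA cells, against 0.0332% and 0.0244% in normal cells. Snrnp70 had most of the U1 reads in normal cells. The U11/U12 genes took 0.00678% and 0.00496% in BPA cells, against 0.0135% and 0.0108% in normal cells. Both U1 and U11/U12 take part in recognition of the start of the intron, but a link to that role was not tested. Within these classes Snrpa and Snrnp48 had positive log2 fold changes, of 1.98 and 0.41. In bulk samples, fewer cells expressing a gene and less RNA of it per cell cannot be told apart.

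No splicing factor gene passed the test across all genes. The quasi-likelihood test of edgeR, Benjamini-Hochberg adjusted over 8645 genes, called 0 of the 53, as it called 0% of all genes, with 0.372 as the smallest adjusted p. An unadjusted p under 0.05 was found for 9 genes (17.0%), against 9.64% of all genes. Of these, 4 genes had a higher level in BPA cells (Hnrnpa1, Srsf6, Snrpb2 and Snrpg), where 2.41% of all genes had such a value. The other 5 had a lower level (Snrnp70, Snrnp25, Snrnp35, Hnrnph3 and Hnrnpll), where 7.23% of all genes did. DESeq2, run on the same genes, called Snrnp25 and Hnrnph3 as lower, against a background of 2.53%, and called 0 as higher, against 0.521%. The log2 fold change of BPA over normal was positive in 30 genes and negative in 23, while 50.5% of all tested genes had a negative value. Its median was 0.27 over the splicing factor genes and -0.02 over all tested genes.

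**Figure D1:**
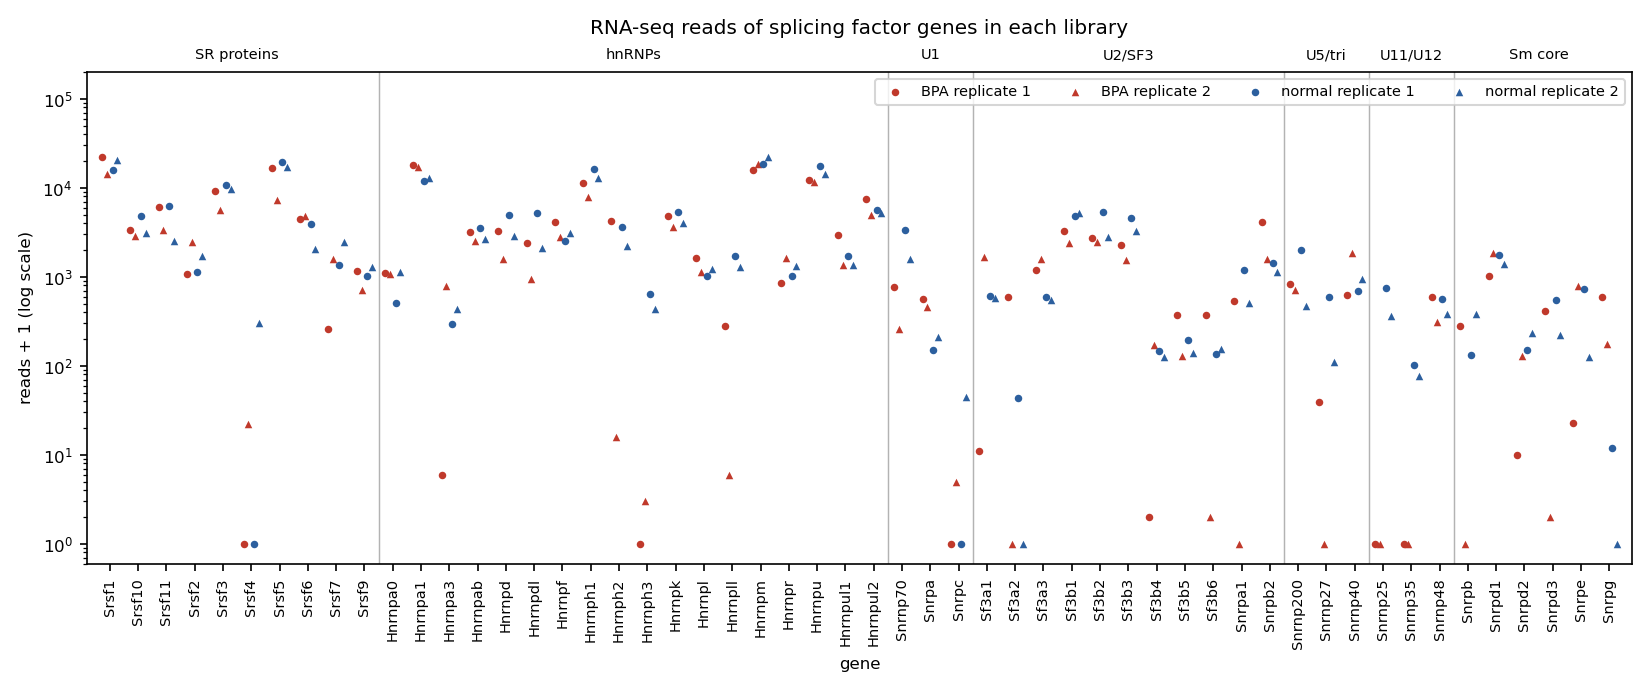
RNA-seq reads plus 1 (log scale) of the 54 splicing factor genes, grouped by role, in BPA replicates 1 and 2 (red) and normal replicates 1 and 2 (blue). SR and hnRNP genes lie mostly above 1000 reads with the 4 libraries close together, whereas Snrnp25 and Snrnp35 lie at 0 reads in both BPA libraries and several SF3 and Sm genes lie low in a single BPA library.

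Replicate libraries differed less in abundant genes than in the others. Of the 53 genes, 31 (58.5%) had a mean of at least 1000 reads, against 20.3% of all tested genes. Replicates were compared by the ratio of the larger to the smaller count, with 1 read added to each. The counts were not scaled to library size, so these ratios also carry the difference in library totals. Among these 31 the median ratio was 1.55 times in BPA cells and 1.30 times in normal cells. Among the other 22 the medians were 28.3 times in BPA cells and 1.51 times in normal cells. Replicates 100 or more times apart were found for 8 genes (15.1%) in BPA cells and 1 gene (1.89%) in normal cells, against 24.0% and 7.39% of all tested genes. The 31 abundant genes had a median log2 fold change of 0.27, against 0.34 for all 1756 abundant genes, and the 22 others had 0.14. In a fit of the abundant genes alone the 31 had a median of -0.0031, with 15 positive and 16 negative, against 0.07 for all abundant genes, so the sign of this median depends on the genes in the fit. CPM, the read count normalised to library size, was higher in each BPA library than in each normal library for 15 of the 53 genes, against 12.8% of all tested genes. It was below both for 8 genes, against 27.2%. Among the 31 abundant genes these numbers were 10 and 2, against 498 and 174 of all 1756 abundant genes.

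**Figure D2:**
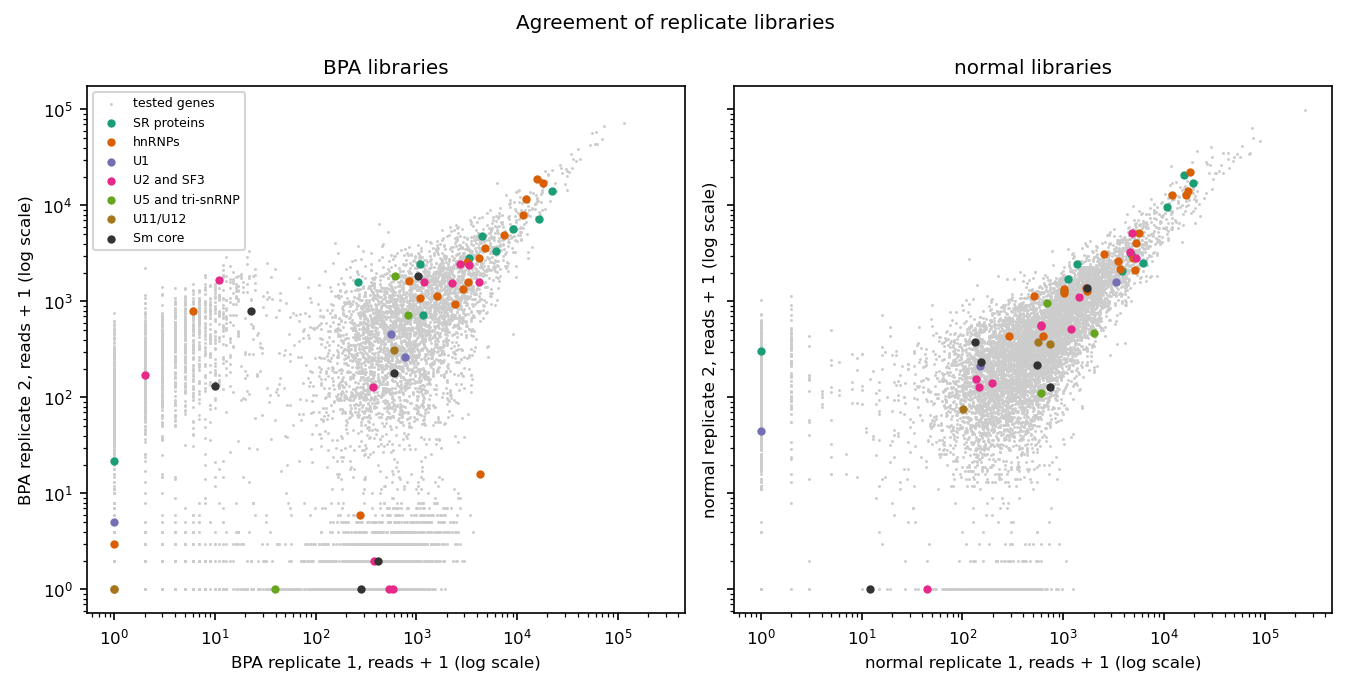
Reads plus 1 of replicate 2 against replicate 1 (log scales) in BPA libraries (left) and normal libraries (right), for all tested genes (grey) and the splicing factor genes coloured by role. Replicates lie 100 or more times apart for 8 splicing factor genes in BPA libraries and for 1, Srsf4, in normal libraries.

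Promoter sequences are shown for 4 genes whose unadjusted p was under 0.05 and which carry the motif matches described next. They run from 250 bases before to 50 bases after the first listed start in the RefSeq annotation of GRCm38.p6, 5′ to 3′ on the gene's strand. Capitals mark matches of the TATA box (TATAAA), the CCAAT box, the core bound by ETS factors (CCGGAAG) or the core bound by NRF1 (GCATGCGC) on either strand, merged where they overlap. Snrnp70 lies at chr7:45395693-45395992 on the minus strand, Snrnp25 at chr11:32205165-32205464, Snrpb2 at chr2:143062819-143063118 and Hnrnpa1 at chr15:103240147-103240446, all 3 on the plus strand.
Snrnp70: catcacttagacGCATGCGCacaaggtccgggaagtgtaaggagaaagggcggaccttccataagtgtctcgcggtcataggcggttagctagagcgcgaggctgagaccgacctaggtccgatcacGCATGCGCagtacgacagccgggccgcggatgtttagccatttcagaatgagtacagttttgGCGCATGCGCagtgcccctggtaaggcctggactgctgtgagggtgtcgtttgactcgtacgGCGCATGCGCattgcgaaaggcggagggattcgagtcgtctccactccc
Snrnp25: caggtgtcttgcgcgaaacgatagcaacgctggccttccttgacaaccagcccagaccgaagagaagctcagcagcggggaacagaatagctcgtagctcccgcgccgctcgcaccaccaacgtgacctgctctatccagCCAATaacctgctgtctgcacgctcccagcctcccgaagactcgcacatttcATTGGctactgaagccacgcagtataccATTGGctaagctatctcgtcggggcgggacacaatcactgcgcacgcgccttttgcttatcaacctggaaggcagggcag
Snrpb2: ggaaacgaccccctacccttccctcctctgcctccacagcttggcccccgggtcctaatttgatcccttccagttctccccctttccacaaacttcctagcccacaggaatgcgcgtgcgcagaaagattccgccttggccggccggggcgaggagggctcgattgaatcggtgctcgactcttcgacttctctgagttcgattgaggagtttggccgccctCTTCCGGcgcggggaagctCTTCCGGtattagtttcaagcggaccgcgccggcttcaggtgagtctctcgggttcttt
Hnrnpa1: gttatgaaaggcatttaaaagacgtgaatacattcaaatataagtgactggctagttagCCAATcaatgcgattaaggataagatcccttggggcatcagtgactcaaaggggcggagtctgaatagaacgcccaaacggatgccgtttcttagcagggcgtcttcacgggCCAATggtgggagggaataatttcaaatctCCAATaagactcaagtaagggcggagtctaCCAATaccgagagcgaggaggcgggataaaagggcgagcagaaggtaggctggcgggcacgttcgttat
Snrnp70 holds the NRF1 core at 4 places, Snrnp25 the CCAAT box at 3, Snrpb2 the ETS core at 2 and Hnrnpa1 the CCAAT box at 4.

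A promoter entry was found for 47 of the 54 genes. The ETS core was in 18 of these (38.3%), against 20.8% of 6567 tested genes with an entry and 9.12% of all 27025 entries. CCAAT was in 19 (40.4%), against 39.3% and 37.9%. TATAAA was in 7 (14.9%), against 6.20% and 14.2%, and the NRF1 core was in 2, Snrnp70 and Srsf7 (4.26%), against 6.37% and 2.80%. Median GC content was 60.0%, against 62.0% in tested genes and 52.7% in all entries, and the median number of CpG dinucleotides was 24, against 23 and 7. The motifs were chosen after the sequences had been seen, and a match is a description of the letters only.

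Among the SR protein genes, Srsf6, whose product binds exonic enhancers and can act as an activator or a repressor of exons, had the smallest p. It had 4518 and 4812 reads in BPA cells, against 3876 and 2070 reads in normal cells. On the CPM scale it averaged 712 ± 265 in BPA cells and 301 ± 49.8 in normal cells (SD, n = 2 each), and the groups did not overlap. Its log2 fold change was 1.22 ± 0.51 (SE), with an unadjusted p of 0.0324 and an adjusted p of 0.372 by the quasi-likelihood test of edgeR (Benjamini-Hochberg adjusted). Without normal replicate 2, the lower of its normal counts, the log2 fold change was 1.10, and without BPA replicate 2 it was 0.84.

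Apart from Srsf6, the most abundant SR genes had log2 fold changes between -0.23 and 0.63. Srsf1, which encodes the founding SR protein and alternative splicing regulator SF2/ASF, had 22159 and 14267 reads in BPA cells, against 15941 and 20513 reads in normal cells, with a log2 fold change of 0.39 ± 0.36. Srsf5 had 16622 and 7280 reads in BPA cells, against 19353 and 17218 reads in normal cells, with a log2 fold change of -0.23 ± 0.36. Srsf3, the smallest SR protein and a factor in mRNA export as well as splicing, had 9187 and 5664 reads in BPA cells, against 10757 and 9576 reads in normal cells. It averaged 1063 ± 6.40 CPM in BPA cells and 1080 ± 209 CPM in normal cells, a log2 fold change of -0.02 ± 0.39. The CPM of these 3 genes overlapped between the conditions. Srsf11, a gene of an SR-related protein, had 6157 and 3380 reads in BPA cells, against 6221 and 2529 reads in normal cells, with a log2 fold change of 0.63 ± 0.48, and its CPM was higher in both BPA libraries than in either normal library. Srsf10, a splicing repressor when it is dephosphorylated, had 3333 and 2858 reads in BPA cells, against 4761 and 3109 reads in normal cells, with 0.17 ± 0.51.

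Of the other SR genes, Srsf2, whose product SC35 binds exonic enhancers, had 1080 and 2434 reads in BPA cells, against 1123 and 1710 reads in normal cells, with a log2 fold change of 0.85 ± 0.77. Srsf7 had 259 and 1591 reads in BPA cells, against 1371 and 2462 reads in normal cells, with -0.50 ± 0.92. Srsf9 had 1173 and 717 reads in BPA cells, against 1011 and 1283 reads in normal cells, with 0.14 ± 0.82. In each of these 3 the standard error was close to the difference or larger. Srsf4 was read in replicate 2 of each condition alone, with 0 and 21 reads in BPA cells, against 0 and 302 reads in normal cells. It was the 1 gene whose normal libraries lay 100 or more times apart, and its log2 fold change was -3.41 ± 2.74 with all libraries and 6.71 without normal replicate 2.

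Among the hnRNP genes, Hnrnpa1 had the smallest p of all 53. Its product is an abundant RNA-binding protein that represses exons, often against SR proteins. It had 18117 and 17133 reads in BPA cells, against 11916 and 12837 reads in normal cells, and CPM averaged 2654 ± 775 in BPA cells and 1339 ± 434 in normal cells (SD, n = 2 each). Each BPA library was above each normal library, and the log2 fold change was 0.99 ± 0.37. The unadjusted p was 0.0205 and the adjusted p 0.372 by the quasi-likelihood test of edgeR (Benjamini-Hochberg adjusted), and DESeq2 gave an adjusted p of 0.0572. Hnrnpa1 has near-identical copies in the genome, so its count is uncertain.

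Of the hnRNP genes with a lower level in BPA cells, Hnrnph3 and Hnrnpll had an unadjusted p under 0.05. Hnrnph3, which encodes a member of the G-rich-sequence-binding hnRNP H/F family, had 0 and 2 reads in BPA cells, against 634 and 431 reads in normal cells. The BPA level was 0.00223 of the normal level over the pooled reads, with an exact 95% counting interval of 0.00027 to 0.00808. The adjusted p was 0.372 by the quasi-likelihood test of edgeR (Benjamini-Hochberg adjusted) and 0.0322 by DESeq2. Hnrnpll, known as a regulator of Cd45 splicing in T cells, had 276 and 5 reads in BPA cells, against 1707 and 1288 reads in normal cells. CPM averaged 16.5 ± 22.0 in BPA cells and 157 ± 12.2 in normal cells, a log2 fold change of -2.99 ± 1.20 with an adjusted p of 0.372 by the quasi-likelihood test of edgeR (Benjamini-Hochberg adjusted). Both BPA libraries of both genes lay below both normal libraries, but the BPA libraries of Hnrnpll differed widely, and leaving out replicate 1 or replicate 2 of BPA gave it -7.31 or -2.24.

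The nearest relatives of Hnrnph3 did not share its level. Hnrnph1 had 11417 and 7933 reads in BPA cells, against 16415 and 12756 reads in normal cells, and its log2 fold change was -0.12 ± 0.36. Hnrnpf had 4180 and 2817 reads in BPA cells, against 2547 and 3111 reads in normal cells, with 0.72 ± 0.54. Hnrnph2 had 4232 and 15 reads in BPA cells, against 3666 and 2195 reads in normal cells. In Hnrnph2 a single BPA library was low, and leaving out replicate 1 or replicate 2 of BPA gave it -6.69 or 0.75.

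Of the other abundant hnRNP genes, Hnrnpm, a splicing regulator with several RNA recognition motifs, had 15867 and 18687 reads in BPA cells, against 18297 and 22036 reads in normal cells. Its log2 fold change was 0.27 ± 0.39 and its CPM overlapped. Hnrnpu, the nuclear scaffold attachment factor, had 12262 and 11536 reads in BPA cells, against 17511 and 14162 reads in normal cells, with a log2 fold change of 0.10 ± 0.36. Hnrnpul2, a relative of Hnrnpu, had 7462 and 4891 reads in BPA cells, against 5594 and 5177 reads in normal cells. It averaged 891 ± 33.2 CPM in BPA cells and 574 ± 127 CPM in normal cells, and its log2 fold change was 0.64 ± 0.44. Hnrnpk, which binds C-rich RNA, had 4814 and 3617 reads in BPA cells, against 5342 and 4056 reads in normal cells, with a log2 fold change of 0.33 ± 0.47. None of these 4 differed by more than 1.5 times its standard error.

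The remaining hnRNP genes had log2 fold changes between -0.64 and 0.89. Hnrnpul1 had 2922 and 1340 reads in BPA cells, against 1701 and 1374 reads in normal cells, with 0.89 ± 0.64 on the log2 scale. Hnrnpdl, a close relative of Hnrnpd, had 2408 and 944 reads in BPA cells, against 5157 and 2116 reads in normal cells, with -0.64 ± 0.60. Hnrnpl, which binds CA repeats, had 1614 and 1131 reads in BPA cells, against 1019 and 1219 reads in normal cells, with 0.73 ± 0.75. Hnrnpr had 848 and 1613 reads in BPA cells, against 1021 and 1330 reads in normal cells, with 0.59 ± 0.81. Hnrnpa3, a relative of Hnrnpa1 that also has close copies, had 5 and 796 reads in BPA cells, against 291 and 430 reads in normal cells. Its BPA libraries lay more than 100 times apart, and its log2 fold change was 0.73 ± 1.44. The log2 fold changes of Hnrnpa0, Hnrnpab and Hnrnpd were 0.84 ± 0.88, 0.39 ± 0.53 and -0.23 ± 0.53.

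In the U1 particle the genes differed in direction. Snrnp70, which encodes the U1-70K protein that binds U1 RNA and contacts SR proteins, had 774 and 260 reads in BPA cells, against 3323 and 1579 reads in normal cells. CPM averaged 69.3 ± 29.2 in BPA cells and 245 ± 60.4 in normal cells (SD, n = 2 each), and the groups did not overlap. The log2 fold change was -1.77 ± 0.80, with an unadjusted p of 0.0448 and an adjusted p of 0.372 by the quasi-likelihood test of edgeR (Benjamini-Hochberg adjusted). Snrpa, the gene of the A protein of U1, had 557 and 462 reads in BPA cells, against 148 and 210 reads in normal cells, with a log2 fold change of 1.98 ± 1.31. Snrpc had 0 and 4 reads in BPA cells, against 0 and 44 reads in normal cells. Snrnp70 kept a negative log2 fold change, from -2.30 to -1.34, when each library was left out in turn.

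In the U2 particle Snrpb2, the gene of the U2B″ protein that binds a stem-loop of U2 RNA, had 4148 and 1576 reads in BPA cells, against 1419 and 1120 reads in normal cells. CPM averaged 388 ± 133 in BPA cells and 133 ± 14.6 in normal cells, with both BPA libraries higher. The log2 fold change was 1.57 ± 0.63, with an unadjusted p of 0.0268 and an adjusted p of 0.372 by the quasi-likelihood test of edgeR (Benjamini-Hochberg adjusted). Snrpa1, the gene of its partner in the U2 particle, had 536 and 0 reads in BPA cells, against 1184 and 511 reads in normal cells. A log2 fold change of -1.22 ± 1.25 thus rested on BPA libraries that were far apart.

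The SF3A complex, a heterotrimer that binds near the branch point, had positive log2 fold changes in all 3 genes. Sf3a3 had 1189 and 1579 reads in BPA cells, against 599 and 549 reads in normal cells, with CPM of 217 ± 111 in BPA cells and 61.2 ± 13.1 in normal cells and a log2 fold change of 1.80 ± 0.86. Sf3a1 had 10 and 1686 reads in BPA cells, against 605 and 570 reads in normal cells, with 1.19 ± 1.24. Sf3a2 had 588 and 0 reads in BPA cells, against 43 and 0 reads in normal cells, with 4.17 ± 2.14. Only Sf3a3 of the 3 had BPA libraries that were both above the normal ones. Leaving out BPA replicate 2 gave Sf3a1 a log2 fold change of -5.67, and leaving out BPA replicate 1 gave Sf3a2 -7.19.

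The SF3B complex holds the branch point adenosine. The gene of its largest subunit, Sf3b1, had 3305 and 2372 reads in BPA cells, against 4806 and 5214 reads in normal cells, with a log2 fold change of -0.39 ± 0.51. Sf3b2 had 2725 and 2443 reads in BPA cells, against 5329 and 2825 reads in normal cells, with -0.11 ± 0.53. Sf3b3 had 2252 and 1554 reads in BPA cells, against 4568 and 3237 reads in normal cells, with -0.56 ± 0.55. The 3 large subunits thus had negative values within about 1 standard error of 0. The small subunit Sf3b5 had 373 and 128 reads in BPA cells, against 196 and 139 reads in normal cells, with 1.03 ± 1.38. Sf3b6, whose product contacts the branch point, had 374 and 1 reads in BPA cells, against 135 and 153 reads in normal cells. Sf3b4 had 1 and 172 reads in BPA cells, against 144 and 126 reads in normal cells, so the BPA library that was low differed between these small subunit genes.

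In the U5 particle and the tri-snRNP, no gene had an unadjusted p under 0.05. Snrnp200, the gene of the Brr2 helicase that unwinds U4 from U6, had 829 and 715 reads in BPA cells, against 2007 and 470 reads in normal cells, with a log2 fold change of -0.11 ± 0.88. Snrnp40, a U5 protein gene, had 617 and 1841 reads in BPA cells, against 692 and 955 reads in normal cells, with 1.15 ± 0.91. Snrnp27, of the tri-snRNP, had 38 and 0 reads in BPA cells, against 599 and 110 reads in normal cells, with -3.71 ± 2.07. Both BPA libraries of Snrnp27 lay below both normal libraries.

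A pair of U11/U12 genes had no read in BPA libraries. Snrnp25, which encodes a protein of the minor spliceosome particle, had 0 and 0 reads in BPA cells, against 746 and 358 reads in normal cells. Against a floor of 3 counts over both BPA libraries it was at least 310-fold lower in BPA cells, as far as counting error goes. The adjusted p was 0.372 by the quasi-likelihood test of edgeR (Benjamini-Hochberg adjusted) and 0.00740 by DESeq2. Snrnp35, the U11/U12 counterpart of U1-70K, had 0 and 0 reads in BPA cells, against 101 and 75 reads in normal cells, and was at least 49.4-fold lower on the same floor. Its unadjusted p was 0.0381 and its adjusted p 0.372 by the quasi-likelihood test of edgeR (Benjamini-Hochberg adjusted). The unadjusted p of that test was 0.285 with no filter on low counts and 0.404 with a replicate block. DESeq2 gave an unadjusted p of 0.0841 and no adjusted p. Snrnp48, the third gene, did not share this, with 598 and 313 reads in BPA cells, against 564 and 378 reads in normal cells, and a log2 fold change of 0.41 ± 1.13. Counts of 10 or fewer in both BPA libraries with at least 100 in both normal libraries were found for Snrnp25 and Hnrnph3, or 3.77% of the 53, against 8.84% of all tested genes. Snrnp35, with 75 reads in a normal library, was outside this count. The reverse pattern was found in 0 of the 53 and in 0.185% of all tested genes.

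In the Sm core Snrpg had 598 and 177 reads in BPA cells, against 11 and 0 reads in normal cells. CPM averaged 51.3 ± 25.7 in BPA cells and 0.477 ± 0.674 in normal cells (SD, n = 2 each), and the groups did not overlap. The fitted log2 fold change was 6.54 ± 2.64, with an unadjusted p of 0.0284 and an adjusted p of 0.372 by the quasi-likelihood test of edgeR (Benjamini-Hochberg adjusted). Snrpd1 had 1033 and 1851 reads in BPA cells, against 1736 and 1379 reads in normal cells, with a log2 fold change of 0.46 ± 0.73. Of the other 4, Snrpb, with 281 and 0 reads in BPA cells, against 131 and 380 in normal cells, and Snrpd3, with 413 and 1 reads in BPA cells, against 548 and 219 in normal cells, were low in BPA replicate 2. Snrpe, with 22 and 797 reads in BPA cells, against 736 and 126 in normal cells, and Snrpd2, with 9 and 129 reads in BPA cells, against 150 and 230 in normal cells, were low in BPA replicate 1. Sm proteins assemble into a single ring, and their genes had positive log2 fold changes in 3 cases and negative ones in 3, the median being 0.00. Small genes such as these have many near-identical copies, so their counts are uncertain.

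**Figure D3:**
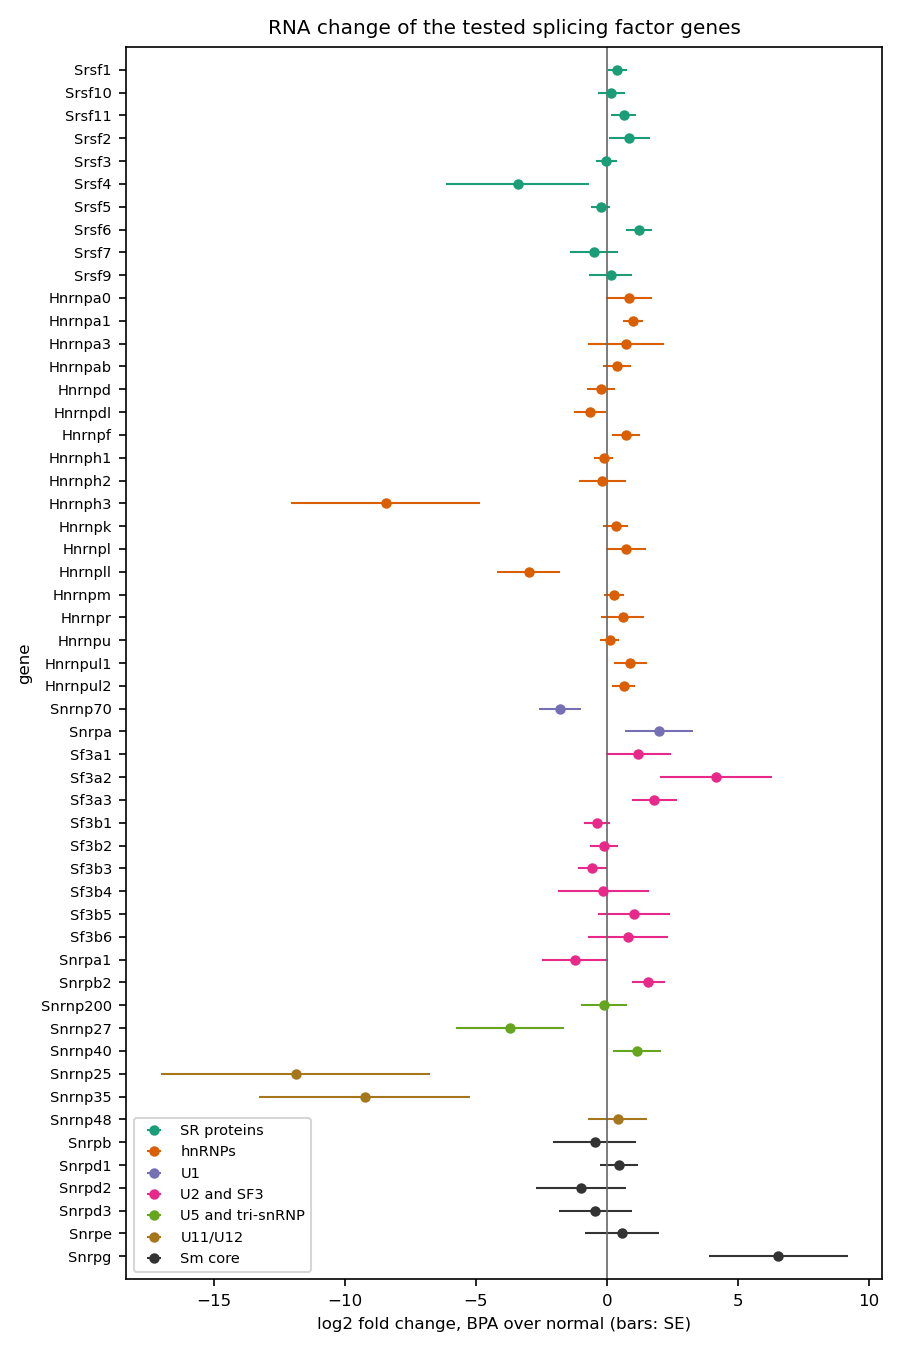
Fitted log2 fold change of RNA, BPA over normal, of the 53 tested splicing factor genes by role, with bars of 1 SE. Most genes lie within 1 SE or so of 0, and the widest bars belong to genes with 0 or few reads in a condition, such as Snrnp25 and Snrnp35, for which the fitted value is not a bound.

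The wider splicing machinery had a like distribution of values. Of 75 other genes of the spliceosome and of splicing regulation, 74 were tested, and the quasi-likelihood test of edgeR (Benjamini-Hochberg adjusted) called 0 of them. The log2 fold change was positive in 48 and negative in 26, with a median of 0.29, against -0.02 for all tested genes. Of the 74, 50% had a mean of at least 1000 reads. All 1756 genes of that level had 1202 positive and 554 negative values, with a median of 0.34. The unadjusted p was under 0.05 for 2 genes with a higher level, against 2.41% of all tested genes, and for 4 with a lower level, against 7.23%. Rbm25, a U1-associated regulator, had 10598 and 12088 reads in BPA cells, against 7261 and 7338 reads in normal cells, with a log2 fold change of 1.15 ± 0.43. U2af1, which reads the 3′ splice site, had 5282 and 2773 reads in BPA cells, against 2150 and 2222 reads in normal cells, with 1.29 ± 0.54. Both lay above the normal libraries in each BPA library. The helicase gene Aqr had 0 and 0 reads in BPA cells, against 437 and 229 in normal cells. The SR protein kinase gene Clk2 had 0 and 0 reads in BPA cells, against 529 and 301 in normal cells. The tri-snRNP genes Ppih and Prpf3 had 0 and 0, and 0 and 2 reads in BPA cells, against 148 and 26, and 509 and 581 reads in normal cells. DESeq2 called Clk2 and Prpf3 as lower among these, against a background of 2.53%.

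The authors' deposited table of m6A peaks listed 52 peaks in 27 of the splicing factor genes, of 3331 peaks in 2295 genes. A peak was listed for 50% of the 54 genes, against 17.5% of all genes of the count table. Among the genes of 1000 or more mean reads the shares were 74.2%, or 23 of 31 genes, and 56.7%. The IP and the input of each condition had 1 pooled value per peak, in RPM, so there is no replicate error. RPM is reads scaled to a total for each column. The totals recovered for the input were 818212 reads in BPA cells and 1703690 in normal cells. Each lay below the 6305121 reads of the smallest RNA-seq library, so the scaling was not to library size. The listed peaks summed to between 826089 and 894159 RPM per column. A value thus depends on the other peaks and is not comparable with CPM. In the BPA input, 2.44 RPM was 2 reads. Higher or lower IP and input refer to RPM. All listed peaks (100%) had a false discovery rate under 0.05 in the authors' deposited table, for the splicing factor genes as for all. By the authors' log2 fold change, IP over input was higher in BPA cells in 39 peaks (75%), against 68.8% of all peaks. It was lower in 13 (25%), against 31.2%. That value carries a constant offset of 0.78, and less the offset 37 peaks (71.2%) were higher, against 65.1% of all peaks. With the offset left in, all peaks of a gene were higher in 17 genes and lower in 6. Hnrnpa3, Hnrnph1, Hnrnpul2 and Sf3b2 held peaks of both directions.

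The input moved more than the IP in 36 of the 52 peaks (69.2%), against 62.5% of all peaks. The IP was higher in BPA cells in 27 peaks and lower in 25, while the input was higher in 16 and lower in 36. With 1 RPM added, the median log2 change was 0.11 in the IP and -3.27 in the input, against 0.18 and -1.35 over all peaks. The input was under 20 RPM in 26 peaks (50%) in BPA cells and in 2 peaks (3.85%) in normal cells, against 53.1% and 12.6% of all peaks. BPA input under 20 RPM with normal input of at least 100 RPM was found in 19 peaks (36.5%), against 28.6% of all peaks. They lay in 15 genes, and the RNA log2 fold change of the gene was above 0 in 8 and below 0 in 7. These are signs of the fitted value, not of raw counts, and the fit is on another scale than RPM. The same split was not made for the genes of the other listed peaks. Where each of the 4 columns held 100 reads or more, in 19 peaks, 10 were higher and 9 lower, and over all 1016 such peaks 532 were higher and 484 lower. Of the 26 peaks with under 20 RPM of input in BPA cells, 23 were higher and 3 lower, and over all peaks the numbers were 1519 and 249. Of the other 26, 16 were higher and 10 lower with the offset left in, and over all peaks 772 and 791. These 16 include the same Sf3b1 and Snrnp70 peaks. Input is the denominator of the listed change, so low input in BPA cells moves a peak towards the higher side by construction.

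**Figure D4:**
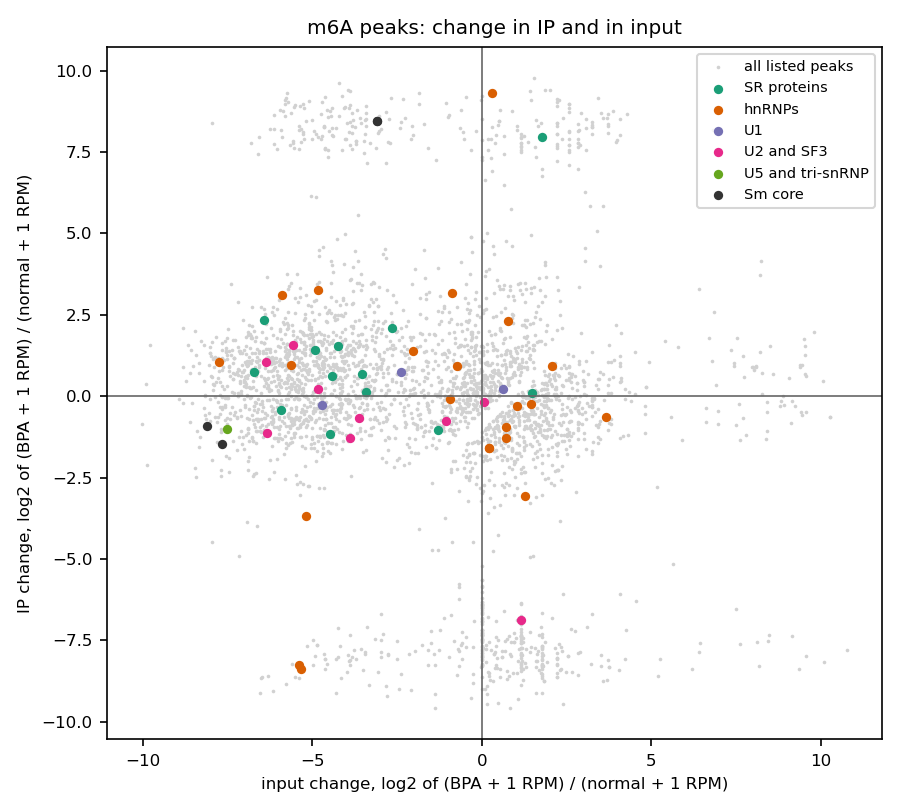
Log2 change in IP against log2 change in input, BPA over normal with 1 RPM added, for all listed peaks (grey) and the 52 peaks of the splicing factor genes coloured by role. The median of the 52 peaks is 0.11 on the IP axis and -3.27 on the input axis.

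Peak directions are given by role as counts, with no test of a difference between roles, beside the 68.8% of all peaks that were higher. SR genes had 12 higher peaks and 1 lower peak in 7 genes, the U2 and SF3 genes 8 and 1 in 4 genes, and the hnRNP genes 11 and 11 in 12 genes. Input under 20 RPM in BPA cells was found in 10 of 13 SR peaks, 7 of 9 U2 and SF3 peaks and 5 of 22 hnRNP peaks. The Snrnp70 peaks were 3 higher, the Snrnp200 peak was higher, and the 4 peaks of Snrpe and Snrpd1 were higher. Less the offset of 0.78, 2 of the 3 Snrnp70 peaks and 7 of the 9 U2 and SF3 peaks were higher. Peaks of the same gene come from the same libraries and are not independent.

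Among the SR peaks, Srsf3 had a spliced peak at chr17:29254477-29255308 with 916 RPM in the IP and 175 RPM in the input in BPA cells, against 211 RPM and 1107 RPM in normal cells. The log2 fold change of that peak was 5.56 in the authors' deposited table. Its other peak, at chr17:29251702-29251776, had 565 RPM in the IP and 7.33 RPM in the input in BPA cells, against 110 RPM and 718 RPM in normal cells, with 9.75 in the authors' deposited table. In both Srsf3 peaks the IP was higher and the input lower in BPA cells. Srsf10 had 4 peaks within its gene on chromosome 4, all higher, and the strongest had 956 RPM in the IP and 9.78 RPM in the input in BPA cells, against 572 RPM and 1147 RPM in normal cells. The RNA log2 fold change of the whole Srsf10 gene was smaller than its standard error. Srsf6 had a peak at chr2:162777932-162778056 with 299 RPM in the IP and 2.44 RPM in the input in BPA cells, against 0.19 RPM in the IP and 0 RPM in the input in normal cells. The peak had almost no read in normal cells, where the gene had 3876 and 2070 RNA-seq reads.

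The Srsf1 peaks differed in depth. At chr11:87940547-87940746 the peak had 489 RPM in the IP and 324 RPM in the input in BPA cells, against 999 RPM and 797 RPM in normal cells, with a log2 fold change of 1.04 in the authors' deposited table. The 2 other Srsf1 peaks had 14.67 and 2.44 RPM of input in BPA cells and values of 6.66 and 4.59 in the authors' deposited table. The well covered peak thus had the smallest value of the 3. The 1 lower SR peak was in Srsf11, with 249 RPM in the IP and 434 RPM in the input in BPA cells, against 234 RPM and 155 RPM in normal cells, and -0.62 in the authors' deposited table. The single peaks of Srsf5 and Srsf7 each had 2.44 RPM of input in BPA cells, against 103 RPM and 210 RPM in normal cells.

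Among the hnRNP peaks, Hnrnpk had 3 that were all lower and well covered. At chr13:58543430-58543504 the peak had 577 RPM in the IP and 1220 RPM in the input in BPA cells, against 710 RPM and 591 RPM in normal cells, and the authors' deposited table gave -0.57. The other 2 had -1.21 and -0.91 in the authors' deposited table. In all 3 the IP was lower and the input higher in BPA cells. Hnrnpr had 2 peaks with the same IP, 203 RPM in BPA cells and 608 RPM in normal cells, and input of 549 RPM and 534 RPM in BPA cells, against 474 RPM and 464 RPM in normal cells. Both had -1.01 in the authors' deposited table.

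Hnrnph1 held peaks of both directions within 1 gene. At chr11:50269249-50270438, a spliced peak, the IP was 60.4 RPM and the input 499 RPM in BPA cells, against 512 RPM and 206 RPM in normal cells. At chr11:50273389-50273413 the IP was 626 RPM and the input 287 RPM in BPA cells, against 67.9 RPM and 529 RPM in normal cells. The log2 fold changes were -3.58 and 4.86 in the authors' deposited table. Hence the IP of the same gene was lower at the first place and higher at the second, with no column under 60 RPM. At the third place, chr11:50273464-50273538, the IP was 612 RPM in BPA cells and 647 RPM in normal cells.

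The Hnrnpa1 and Hnrnpu peaks were all higher. Hnrnpa1 had a well covered peak at chr15:103150344-103150493 with 1089 RPM in the IP and 592 RPM in the input in BPA cells, against 571 RPM and 980 RPM in normal cells, and 2.44 in the authors' deposited table. The second Hnrnpa1 peak had 928 RPM in the IP and 26.9 RPM in the input in BPA cells, against 476 RPM and 1377 RPM in normal cells. Both had a higher IP and a lower input in BPA cells, while the RNA-seq count of the gene was higher in both BPA libraries. Hnrnpu had peaks with 713 RPM and 585 RPM in the IP in BPA cells, against 82.2 RPM and 60.5 RPM in normal cells, and their input was 11 RPM and 20.8 RPM in BPA cells, against 714 RPM and 625 RPM in normal cells.

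Hnrnpul2 had the widest IP difference of the 52 peaks among those with at least 100 RPM of input in both conditions. At chr19:8811133-8811207 the IP was 864 RPM and the input 484 RPM in BPA cells, against 0.37 RPM and 397 RPM in normal cells, and the authors' deposited table gave 11.68. Its other peak, at chr19:8809883-8809932, had 480 RPM in the IP and 825 RPM in the input in BPA cells, against 249 RPM and 194 RPM in normal cells. Hnrnpm had 1 peak, with 608 RPM in the IP and 194 RPM in the input in BPA cells, against 230 RPM and 805 RPM in normal cells. The 2 Hnrnpul1 peaks were higher, and the better covered one had 268 RPM in the IP and 241 RPM in the input in BPA cells, against 53.5 RPM and 141 RPM in normal cells. At that peak both the IP and the input were higher in BPA cells. Hnrnpa3 had a lower peak with 226 RPM in the IP and 654 RPM in the input in BPA cells, against 433 RPM and 396 RPM in normal cells, and a higher one with 2.44 RPM of input in BPA cells. Hnrnpdl had a lower peak, with 146 RPM in the IP and 352 RPM in the input in BPA cells, against 229 RPM and 27 RPM in normal cells. The Hnrnpl and Hnrnpll peaks had no IP read in BPA cells, with 0 RPM, against 331 RPM and 304 RPM in normal cells. Their BPA input was 2.44 RPM and 8.56 RPM, against 137 RPM and 401 RPM in normal cells, so both IP and input were low. For Hnrnpll the RNA-seq count was low in both BPA libraries too, whereas for Hnrnpl it was not.

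**Figure D5:**
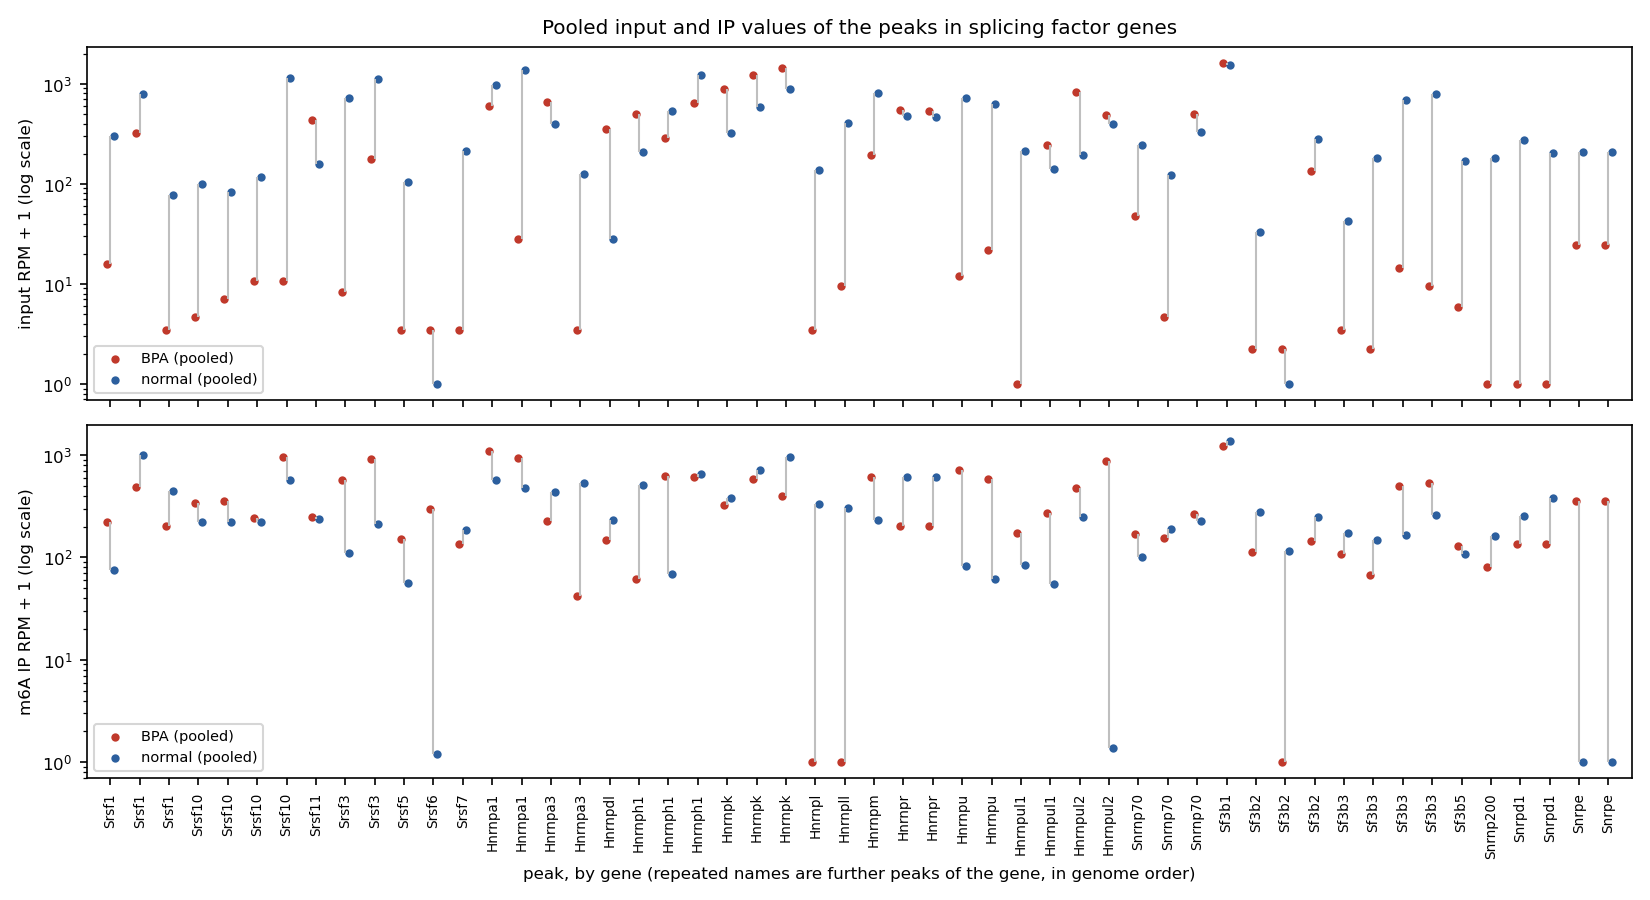
Pooled input RPM plus 1 (top) and IP RPM plus 1 (bottom), on log scales, of each of the 52 peaks by gene, in BPA cells (red) and normal cells (blue), joined by a grey line. Input of BPA cells lies under 20 RPM for 26 peaks, against 2 peaks for normal cells, while the IP of both conditions stays above 20 RPM in most peaks.

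In the snRNP genes, Snrnp70 had 3 peaks on chromosome 7. At chr7:45044108-45044132 the IP was 262 RPM and the input 499 RPM in BPA cells, against 225 RPM and 325 RPM in normal cells. The authors' deposited table gave 0.38, or -0.40 less the offset of 0.78, and the ratio of IP to input RPM was lower in BPA cells. The other 2 had 3.67 RPM and 46.4 RPM of input in BPA cells, against 122 RPM and 245 RPM in normal cells, and the authors' deposited table gave 5.54 and 3.91. The Snrnp70 gene had fewer RNA-seq reads in both BPA libraries. Its most covered peak had a higher input RPM in BPA cells, but fewer input reads, with 408 against 553 in normal cells. Sf3b1 had 1 peak, at chr1:55026278-55026302, with 1211 RPM in the IP and 1608 RPM in the input in BPA cells, against 1358 RPM and 1542 RPM in normal cells. The authors' deposited table gave it 0.55, or -0.23 less the offset of 0.78. The peak was the most deeply covered of the 52 and lay near its level in normal cells in all columns.

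Sf3b3 had 4 peaks, all higher, with input between 1.22 and 13.44 RPM in BPA cells and between 41.67 and 789 RPM in normal cells. Sf3b5 had 1 peak with 127 RPM in the IP and 4.89 RPM in the input in BPA cells, against 108 RPM and 167 RPM in normal cells. Of the Sf3b2 peaks, 1 had 145 RPM in the IP and 134 RPM in the input in BPA cells, against 246 RPM and 281 RPM in normal cells, and another had 0 RPM in the IP in BPA cells, against 115 RPM in normal cells, where the input was 0 RPM. Snrpe had 2 peaks with the same IP, 351 RPM in BPA cells and 0 RPM in normal cells, and an input of 23.2 RPM in BPA cells, against 207 RPM and 205 RPM in normal cells. The Snrpd1 and Snrnp200 peaks had 0 RPM of input in BPA cells. Of the 52 peaks, 14 (26.9%) were spliced, with 2 or more blocks, against 19.6% of all peaks, and the median covered length was 75 bases in both sets. Where in the transcript the peaks lie is not analysed here.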

How the data were processed

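Members and gene lists were chosen with earlier results of these data known. Whole read counts per Ensembl gene were deposited by the authors for 4 libraries, whose columns carry condition and number but no assay and were taken as RNA-seq. The tools, per the submitters' processing notes, were DESeq2 1.38.3, featureCounts 2.0.1, HISAT2 2.2.1 and fastp 0.20.1, and the builds GRCh38 and GRCm39, without their roles. Strand use and the handling of multi-mapping reads are not given in these sources. The peak table, deposited by the authors with replicates pooled, holds RPM, a log2 fold change, a p-value and a false discovery rate, from a test that the sources used here do not name. The authors' log2 fold change exceeded the log2 ratio of IP over input RPM, BPA over normal, by a constant of 0.78 in the 1016 peaks where every column held 100 reads or more. Read numbers behind the RPM values were recovered from their steps, and 100% came out whole within 0.1 read. Peak starts were made 1-based, and their build was read as GRCm39.

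The test of counts was that of edgeR 4.0.16, under R 4.3.3, with Benjamini-Hochberg adjustment over 8645 genes. It used TMM, filterByExpr at a minimum count of 10 and total of 15, and the robust quasi-likelihood F test. The script was run on simulated data, and the outcome is not given here. The median coefficient of variation fitted between replicate libraries was 1.38. With 2 libraries per condition, 0 calls thus do not show equal levels. CPM used TMM-scaled totals, and standard errors came from the F statistic. DESeq2 1.42.0 was an alternative. Counts are not corrected for gene length. Floors of 3 counts and intervals cover counting error only. Full values were given for genes with an unadjusted p under 0.05, the 10 with the highest mean CPM, those with a peak, those near 0 in a condition, and those with replicates 100 or more times apart. The main fit used no replicate block, because the labels do not say what a shared replicate number stands for.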

Additional observations from a re-analysis of the deposited data

How the results depend on the processing

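edgeR called 0 splicing factor genes and 0 of the other splicing genes in each of its settings run, and DESeq2 called 2 of each set. At an unadjusted p under 0.05 the splicing factor genes were 4 higher and 5 lower. DESeq2 gave 3 lower, a fit of the genes of 1000 or more mean reads gave 0 and 1, and the older quasi-likelihood method, added after the data had been seen, gave 2 higher. The correlation of replicate differences between the conditions was 0.0029 over 8645 genes. It cannot show whether libraries of a shared number were handled as pairs, because noise between replicates could hide a pairing. The replicate block gave 3 higher and 1 lower, changing no call. Leaving out each library gave 0 to 7 higher and 0 to 5 lower. For the other splicing genes, 2 higher and 4 lower became 4 higher with DESeq2, 5 and 2 with its size factors, 4 and 2 with no filter, 1 and 0 in the abundant fit, and 3 and 0 with the replicate block, and leaving out each library gave 0 to 12 higher and 0 to 7 lower. DESeq2's size factors moved the median of all genes by 0.14 (no filter gave that median as -0.37), and the split of the splicing factor genes from 30 positive and 23 negative to 34 and 19. The median log2 fold change of the splicing factor genes lay between -0.03 and 0.45 with a library left out. Requiring at least 100 reads in all 4 columns left 10 higher peaks in place of 39 and 9 lower in place of 13. A false discovery rate of 0.01 left 38 higher, and subtracting the offset of 0.78 left 37. The sign changed for a peak of Snrnp70 and the peak of Sf3b1, and both had at least 100 reads in all 4 columns. With 0.1 or 5 RPM added in place of 1, the input moved more than the IP in 36 peaks in each case.

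Some log2 fold changes changed sign. The abundant fit gave Srsf10 -0.11, Srsf9 -0.13, Hnrnpm -0.0031 and Hnrnpu -0.18. DESeq2 gave Srsf3 0.12, Sf3b2 0.0393, Sf3b4 0.29, Snrnp200 0.10 and Hnrnph1 0.0147, and its size factors in edgeR gave Srsf3 0.12, Sf3b2 0.0198, Snrnp200 0.0199 and Hnrnph1 0.0145. No filter gave Srsf3 0.0484, and the older method gave Sf3b4 0.17. The cause was not tested. With a library left out, the ranges were -0.0271 to 0.45 for Srsf10, -0.25 to 1.62 for Srsf2, -0.0781 to 0.22 for Srsf3, -10.22 to 6.71 for Srsf4, -0.46 to 0.0349 for Srsf5, -2.77 to 0.55 for Srsf7, -0.15 to 0.66 for Srsf9, -10.79 to 0.82 for Snrpb, -0.40 to 1.14 for Snrpd1, -4.19 to 0.33 for Snrpd2, -7.55 to 0.33 for Snrpd3, -4.03 to 2.10 for Snrpe, -5.67 to 2.41 for Sf3a1, -7.19 to 11.26 for Sf3a2, -0.57 to 0.0126 for Sf3b1, -0.35 to 0.20 for Sf3b2, -6.72 to 1.25 for Sf3b4, -6.17 to 1.57 for Sf3b6, -0.60 to 1.03 for Snrnp200, -0.25 to 2.02 for Snrnp40, -5.96 to 2.02 for Hnrnpa3, -0.38 to 0.0327 for Hnrnpd, -0.16 to 0.00864 for Hnrnph1, -6.69 to 0.75 for Hnrnph2, -0.21 to 0.77 for Hnrnpm, -0.31 to 1.31 for Hnrnpr and -0.18 to 0.42 for Hnrnpu. A lone library of a condition was assumed to vary like the pair of the other.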
